A study of Mus musculus with 18 samples.

Results

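The genes described here are 10 members of the mammalian circadian clock and its direct output: the period genes Per1, Per2 and Per3, the repressor Ciart, the nuclear receptors Nr1d1 and Nr1d2, the activator Arntl (also called Bmal1), and the transcription factors Dbp, Tef and Hlf. They were chosen by gene symbol, and 10 of 10 were found among the 21015 gene identifiers of the count table. The family was proposed with earlier results of these libraries known, among them the high Per2 level in guanabenz-treated wild-type mice. That contrast, and the genotype difference that contains it, are therefore described without a test of the members. Comparisons that reuse libraries of that contrast are not independent of it.

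Bulk RNA came from tumours that MC38-OVA cells, a mouse colon carcinoma line with ovalbumin as model antigen, formed in wild-type hosts (WT) or hosts lacking Adra2a (KO). Each genotype had a Control, a Clonidine and a Guanabenz group, 6 groups in all with 3 libraries each. Clonidine and guanabenz are agonists of alpha2-adrenergic receptors, of which the Adra2a product is a member. Treatment was given each day into the peritoneum, controls received PBS according to the treatment protocol (their entries read untreated), and collection followed 7 days after treatment. The age entry is 10 weeks for every library. The 3 libraries titled KO-Guanabenz have the treatment entry untreated. Their title was followed, and the conflict bears on each statement about them. The implanted tumour cells are not from the KO strain, so in KO tumours the gene is missing from host cells alone. Doses, the hour of collection and the animal behind each library are not given in the labels, and p-values therefore rest on the spread between libraries, whatever part of it is technical. For genes of a daily clock, a difference between groups cannot be told apart from a difference in the hour of collection. This holds for every contrast below and was not tested.

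The clock is a feedback loop of transcription that runs in nearly every cell. ARNTL pairs with CLOCK and binds E-box elements in the Per, Cry, Nr1d1, Nr1d2, Dbp and Tef genes, and the PER and CRY proteins, with the Ciart product, then repress that pair. NR1D1 and NR1D2 (REV-ERB alpha and beta) repress Arntl through ROR elements, so that in a rhythmic tissue Arntl runs opposite in phase to Dbp and Nr1d1. DBP, TEF and HLF are bZIP factors that bind D-box elements in output genes and in the Per genes. Per1 and Per2 also respond acutely to glucocorticoids and to cAMP signalling, the latter being the pathway that alpha2-adrenergic receptors inhibit.

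Library totals, in units of 1000000 counts, ran from 54.7 to 491.1 with a median of 92.4. The highest was that of WT-Control 3, beside 98.8 and 96.5 in its partners. Of all libraries WT-Control 3 also had the lowest Per2, Per3, Dbp, Tef, Hlf and Nr1d2 and the highest Arntl. Across libraries the members had between 292 and 25947 counts each, and all 10 passed the filter on low counts in a table of 16125 tested genes. Adra2a itself was scarce, at 0.286 to 0.589 CPM (counts per 1000000, on scaled totals) in the 9 WT libraries and 0.0917 to 0.293 CPM in the 9 KO libraries. Of 8 epithelial markers 6 averaged under 1 CPM (Krt8, Krt18, Krt19, Krt20, Cldn7 and Lgals4), so the carcinoma line is not marked by keratins in these libraries, while Cdh1 lay between 3.08 and 9.75 CPM. Y-linked transcripts averaged above 1 CPM in 3 of 3 WT-Control libraries, in 0 of 3 KO-Clonidine libraries and in 2 of 3 of each other group. In bulk tissue, fewer cells of a type and less RNA per cell cannot be told apart.

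Upstream sequence is shown for the members that carry an E-box, its weaker E-prime form or a D-box just before an annotated start. E-box and D-box elements are how these genes are known to be driven together. RefSeq windows on GRCm38.p6, from 250 bases before to 50 bases after a start, were found for 9 of the 10 members, 12 windows in all; Per2 was not matched. The stretch printed is the longest part of the 250 upstream bases that lies outside annotated exons, on the strand of the gene, with matches in capitals. The E-box was searched as CACGTG. Its weaker E-prime form was searched as CACGTT, which on the other strand reads as AACGTG. The D-box forms were TTATGTAA as well as TTATGCAA. The core of the ROR element was AGGTCA, which on the other strand reads as TGACCT.
Ciart, chr3:95882252-95882478, minus strand: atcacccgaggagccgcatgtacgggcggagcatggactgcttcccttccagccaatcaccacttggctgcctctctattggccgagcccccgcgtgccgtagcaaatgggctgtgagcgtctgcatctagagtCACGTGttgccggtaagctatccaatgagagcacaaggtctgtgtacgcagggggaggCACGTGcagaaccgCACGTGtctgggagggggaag
Per1, chr11:69098699-69098947, plus strand: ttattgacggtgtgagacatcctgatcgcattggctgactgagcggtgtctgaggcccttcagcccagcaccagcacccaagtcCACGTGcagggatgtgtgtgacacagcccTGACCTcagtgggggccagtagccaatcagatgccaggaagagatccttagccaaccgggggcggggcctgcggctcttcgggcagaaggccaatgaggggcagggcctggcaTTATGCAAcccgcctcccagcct
Tef, chr15:81811164-81811413, plus strand: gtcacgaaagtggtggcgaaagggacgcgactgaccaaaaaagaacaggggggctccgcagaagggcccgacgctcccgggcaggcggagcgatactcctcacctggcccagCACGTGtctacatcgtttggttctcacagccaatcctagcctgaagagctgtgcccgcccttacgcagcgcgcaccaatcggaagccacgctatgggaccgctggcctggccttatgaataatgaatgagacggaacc
Per3, chr4:151044666-151044915, minus strand: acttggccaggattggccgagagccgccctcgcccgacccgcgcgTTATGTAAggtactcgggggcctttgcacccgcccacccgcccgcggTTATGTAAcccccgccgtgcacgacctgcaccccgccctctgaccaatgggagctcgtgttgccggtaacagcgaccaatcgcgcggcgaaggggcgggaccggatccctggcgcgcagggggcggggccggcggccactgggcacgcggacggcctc
Nr1d1, chr11:98775378-98775627, minus strand: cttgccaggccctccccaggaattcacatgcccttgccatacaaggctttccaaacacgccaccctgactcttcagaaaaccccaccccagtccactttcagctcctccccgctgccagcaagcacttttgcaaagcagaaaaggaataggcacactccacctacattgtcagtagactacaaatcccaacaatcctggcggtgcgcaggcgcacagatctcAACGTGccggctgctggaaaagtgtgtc

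Ciart held 3 E-boxes, first bases at -116, -58 and -44 from the start, where -1 is the base before it. In Per1 an E-box began at -166, a ROR core at -137 and a D-box at -24, and in Tef an E-box began at -138 of the start shown and at -127 of another start. Per3 held 2 D-boxes of the form TTATGTAA, at -205 and -158, and Nr1d1 an E-prime box at -28. Searched on both strands in all 32851 RefSeq windows of the same length, the E-box occurred in 7.15% of windows, the E-prime box in 4.68%, TTATGTAA in 0.938%, TTATGCAA in 0.743% and the ROR core in 16.3%. Among the members 3 of 9 genes (4 of 12 windows) had an E-box and 3 of 9 (3 of 12 windows) a ROR core. The others with a ROR core were Nr1d2, at -77, and Arntl, whose match lay past the start. Dbp had 0 matches to any motif searched, and no E-box, E-prime box or D-box was found for Arntl, Hlf or Nr1d2. The cAMP response element TGACGTCA, in 1.79% of windows, began at -9 in Hlf. These matches are descriptions of letters in short windows, and no binding was measured.

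Per2, a repressor of the loop (gene 18627, chr1:91415977-91459351, GRCm38), was lowest in WT-Control and KO-Guanabenz and highest in WT-Guanabenz. It measured 6.38, 4.68 and 3.82 CPM in WT-Control 1 to 3, 8.72, 6.97 and 9.57 in WT-Clonidine, and 10.2, 11.7 and 10.8 in WT-Guanabenz. In KO mice it measured 8.38, 10.1 and 8.49 CPM in KO-Control, 8.84, 7.09 and 8.24 in KO-Clonidine, and 4.89, 5.73 and 5.09 in KO-Guanabenz. Guanabenz libraries thus held the highest Per2 values in WT hosts and the lowest in KO hosts, and in neither genotype did the guanabenz range meet the control range. Ordered by group mean, Per2 ran from WT-Control through KO-Guanabenz, KO-Clonidine, WT-Clonidine and KO-Control to WT-Guanabenz, with 2 of the 5 steps between neighbours free of overlap: KO-Guanabenz to KO-Clonidine, and KO-Control to WT-Guanabenz.

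Per3 (gene 18628, chr4:150997018-151044707), the period gene least needed for rhythm, had the same order of group means. It lay at 7.9, 9.15 and 6.82 CPM in WT-Control, 11.7, 11.4 and 15.1 in WT-Clonidine, and 10.5, 18.2 and 14.3 in WT-Guanabenz. The KO values were 14.2, 13.3 and 11.4 CPM in KO-Control, 11.2, 12 and 12.3 in KO-Clonidine, and 8.88, 10 and 10.1 in KO-Guanabenz. Every WT-Control value was below every value of the other WT groups, and WT-Guanabenz 1 was the lowest of its group. Per1 (gene 18626, chr11:69095108-69109965), the period gene with the fastest response to hormones, was highest in WT-Guanabenz at 46.4, 38.1 and 36.5 CPM, against 34.6, 21 and 23.3 in WT-Control. Its other 4 groups ran from 21.1 to 41.1 CPM, and no neighbouring pair in its order of 6 groups was free of overlap. Ciart (gene 229599, chr3:95878500-95882257), which represses the CLOCK pair through ARNTL, was lowest in WT-Clonidine at 3.33, 3.76 and 5.26 CPM and highest in KO-Control at 6.34, 8.53 and 6.84.

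Among the D-box factors, Dbp (gene 13170, chr7:45705100-45710203), the classical clock output gene, spanned the widest relative range of the 10, from 5.17 to 25.5 CPM, with its highest group mean 2.8 times its lowest. Its values were 6.72, 7.64 and 5.17 CPM in WT-Control, 11.1, 8.45 and 12.1 in WT-Clonidine, and 9.49, 20.4 and 14 in WT-Guanabenz. KO-Control held 25.5, 16.1 and 13.1 CPM, KO-Clonidine 15.8, 13.5 and 20.8, and KO-Guanabenz 8.34, 10.9 and 9.03. WT-Control lay below all 5 other groups with no overlap, and the spread within WT-Guanabenz and KO-Control was wide. Tef (gene 21685, chr15:81802673-81826863) had the same order of group means as Dbp, from 61.1, 59.2 and 53.7 CPM in WT-Control to 113, 81.9 and 91.3 in KO-Control, with KO-Guanabenz at 61.1, 67.9 and 73.8. Hlf (gene 217082, chr11:90336535-90390917) ranged from 11.7 to 25.9 CPM, and 0 of its 5 steps between neighbouring groups were free of overlap.

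**Figure D1:**
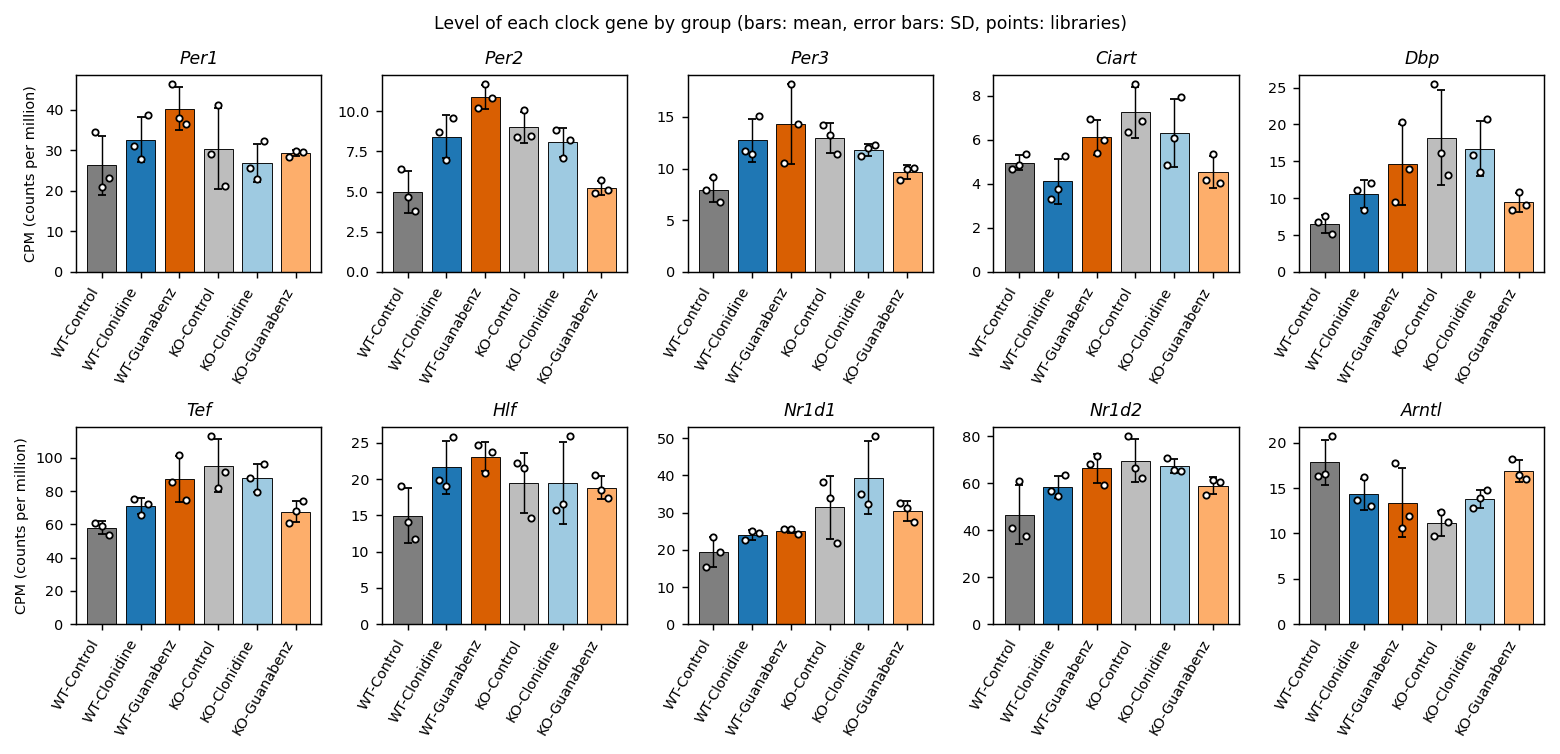
Level of the 10 clock genes in CPM for the 6 groups; bars are means of 3 libraries, error bars the SD, and points the single libraries. Per2, Per3, Dbp and Tef are lowest in WT-Control and second lowest in KO-Guanabenz, where Arntl is highest and second highest.

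Arntl (gene 11865, chr7:113178471-113314126), the activator, had the reverse picture. It measured 16.3, 16.5 and 20.7 CPM in WT-Control, 13.7, 16.2 and 13 in WT-Clonidine, and 17.7, 10.6 and 11.9 in WT-Guanabenz. In KO hosts it measured 9.68, 12.4 and 11.3 CPM in KO-Control, 12.8, 13.9 and 14.8 in KO-Clonidine, and 18.2, 16.4 and 16 in KO-Guanabenz. WT-Guanabenz 1 stood at the control level while its 2 partners were among the lowest libraries. That library had the lowest Dbp, Per3 and Per2 of its group, but also the highest Per1, Hlf and Ciart, so inside WT-Guanabenz the members did not all run opposite to Arntl.

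Of the REV-ERB genes, Nr1d1 (gene 217166, chr11:98767932-98775377) lay at 15.5 to 25.7 CPM in the 9 WT libraries and at 21.9 to 50.5 CPM in the 9 KO libraries, with KO-Clonidine highest at 35, 32.4 and 50.5. Of the KO libraries KO-Control 3, at 21.9 CPM, was the one inside the WT range. Nr1d2 (gene 353187, chr14:18204056-18239106) ran from 37.8 CPM in WT-Control 3 to 80.1 in KO-Control 1. WT-Control 2, at 61.1 CPM, stood well above its partners at 41.1 and 37.8.

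For guanabenz in WT hosts, WT-Guanabenz was set against WT-Control, the contrast in view when the family was proposed. The difference on the log2 scale was 1.15 (standard error, SE 0.17) for Per2, 1.18 (SE 0.27) for Dbp, 0.85 (SE 0.17) for Per3 and 0.59 (SE 0.12) for Tef. Per1 and Hlf were higher by 0.62 and 0.63 (SE 0.21 each), Nr1d2 by 0.51 (SE 0.14), Nr1d1 by 0.37 (SE 0.19) and Ciart by 0.3 (SE 0.19), while Arntl was at -0.42 (SE 0.16). With 1 library left out Per2 ran from 0.98 (without WT-Control 3) to 1.37 (without WT-Control 1). The median of the 10 was 0.6 beside 0.01 over all tested genes. By edgeR's quasi-likelihood test with Benjamini-Hochberg adjustment 0 members were called at adjusted p under 0.05, beside 0.0% of all genes. At an unadjusted p under 0.05 there were 8 members beside 11.4% of genes, and DESeq2 called 5 beside 1.47%. The ranges of the 2 groups were apart and higher for 8 members, beside 6.41% of genes, and apart and lower for 0 beside 8.19%. None of these counts is a test of the family, since the contrast was among those it was drawn from.

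For clonidine in WT hosts, WT-Clonidine was set against the same WT-Control libraries, so the drug contrasts in WT hosts are not independent. Per2 was at 8.42 ± 1.32 CPM against 4.96 ± 1.3 (SD, n = 3), which is 0.77 in log2 (SE 0.16, edgeR adjusted p = 0.1). Per3 differed by 0.68 (SE 0.17, adjusted p = 0.13), Dbp by 0.7 (SE 0.27, adjusted p = 0.28), Hlf by 0.53 (SE 0.21, adjusted p = 0.28) and Tef by 0.3 (SE 0.12, adjusted p = 0.31), all by the same edgeR test. Nr1d1, Nr1d2 and Per1 lay between 0.3 and 0.32, and with 1 library left out they ran from 0.16 to 0.46, from 0.19 to 0.56 and from 0.17 to 0.55. Without WT-Control 2, Nr1d2 passed in edgeR (0.56, adjusted p = 0.045), in an omission where 55 genes were called. In the full set Arntl was at -0.32 (SE 0.16) and Ciart at -0.27 (SE 0.19). Ciart, the repressor with 3 E-boxes shown above, was thus on the lower side under clonidine while 8 of the other 9 members were on the higher side.

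In this contrast edgeR called 0 of 10 members beside 0.0% of genes, 6 members had an unadjusted p under 0.05 beside 12.9%, and DESeq2 called 2 (Per2 and Per3) beside 2.65%. Ranges were apart and higher for 4 members (Per2, Per3, Dbp and Tef) beside 11.1% of genes, and apart and lower for Arntl beside 9.8%. The members' median was 0.32 against 0.0 over all genes. Since the WT-Control libraries were in view when the family was proposed, these counts are no independent support. The summed level of 9 T cell markers was also apart and higher, at 43.7 to 57.5 CPM in WT-Clonidine against 25 to 34.9 in WT-Control, as was that of 8 endothelial markers, at 216 to 235 against 181 to 207 CPM, with 0 markers of either list at 0 in all libraries. Their part in the clock gene values was not tested.

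For guanabenz in KO hosts, KO-Guanabenz was set against KO-Control. These libraries are not in the WT drug contrasts but form the KO side of the genotype difference that is described without a test. If the treatment entry of the KO-Guanabenz libraries is right, both sides are untreated. Here 9 of 10 members were on the lower side, and Arntl on the higher side. Per2 was at 5.24 ± 0.444 CPM against 8.99 ± 0.975 (SD, n = 3), which is -0.78 in log2 (SE 0.17, edgeR adjusted p = 0.08). Dbp was at -0.95 (SE 0.27, adjusted p = 0.14), Ciart at -0.68 (SE 0.2, adjusted p = 0.14), Tef at -0.5 (SE 0.12, adjusted p = 0.11) and Per3 at -0.42 (SE 0.17, adjusted p = 0.25). Arntl was at 16.9 ± 1.17 CPM against 11.1 ± 1.37, a difference of 0.6 (SE 0.16, adjusted p = 0.13 in edgeR). Per1, Hlf and Nr1d1 were near level, at -0.05, -0.04 and -0.05 (SE 0.21, 0.21 and 0.19).

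In the KO guanabenz contrast edgeR called 0 of 10 members beside 0.0124% of genes, and DESeq2 called 5 (Per2, Dbp, Tef, Arntl and Ciart) beside 3.49%. At an unadjusted p under 0.05 there were 6 members beside 15.1% of genes. Ranges were apart and lower for 6 members (Per2, Per3, Dbp, Tef, Nr1d2 and Ciart) beside 10.5%, and apart and higher for Arntl beside 9.08%. The median of the 10 was -0.33 against -0.01 over all genes. Since the family was proposed with earlier results of these libraries known, these counts are no independent support. Fibroblast markers summed to 17600 to 19200 CPM in KO-Guanabenz against 11700 to 16300 in KO-Control, 8 of 8 present. Endothelial markers summed to 216 to 228 against 185 to 212 CPM and skeletal muscle markers to 48.3 to 140 against 153 to 218 CPM, with 8 of 8 present in each list. The part of these cell types in the clock gene values was not tested.

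**Figure D2:**
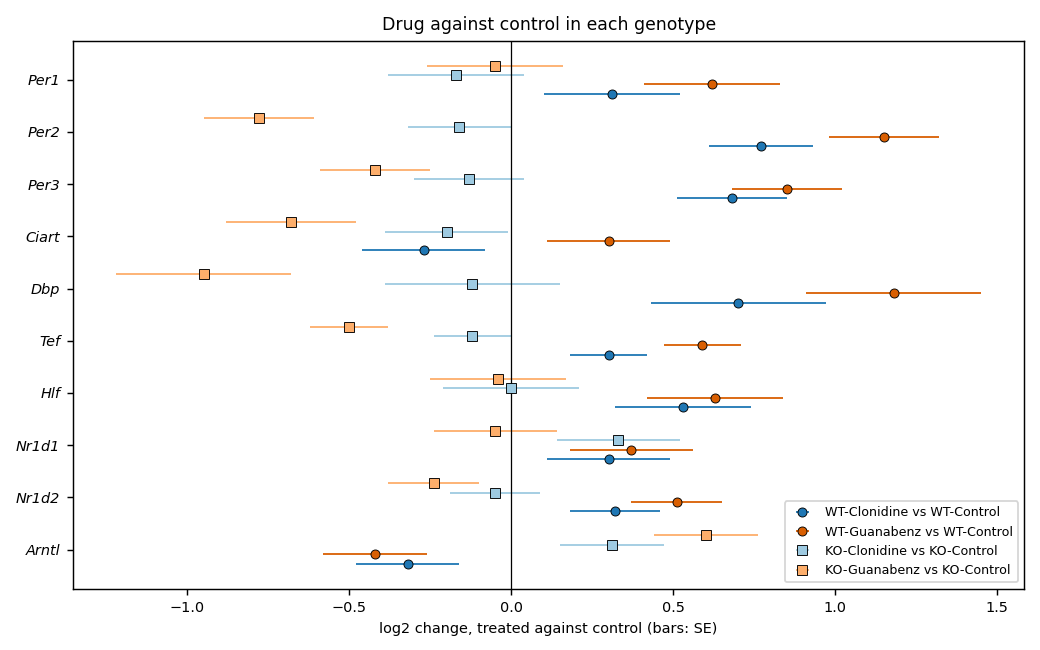
Log2 change of each clock gene under each drug against the control of the same genotype, with SE bars; circles are WT hosts and squares KO hosts. Per2, Per3, Dbp and Tef lie right of 0 in both WT contrasts and left of 0 in both KO contrasts, and Arntl lies on the other side each time.

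For clonidine in KO hosts, KO-Clonidine was set against KO-Control, where the log2 differences ran from -0.2 for Ciart to 0.33 for Nr1d1, with a median of -0.12 against 0.0 over all genes. Per2 was at -0.16 with a 95% interval from -0.51 to 0.19, and Dbp at -0.12 with an interval from -0.69 to 0.44. Arntl was at 0.31 (SE 0.16, adjusted p = 0.94 in edgeR) and was the 1 member whose ranges were apart, at 12.8 to 14.8 CPM against 9.68 to 12.4, beside 4.4% of genes apart and higher and 4.43% apart and lower. Neither edgeR (beside 0.0186% of genes), an unadjusted p under 0.05 (5.52%) nor DESeq2 (0.213%) called any of the 10. Summed erythroid markers were apart and higher, at 405 to 1620 against 143 to 387 CPM, and epithelial markers apart and lower, at 5.17 to 7.4 against 7.42 to 9.56 CPM, and their part was not tested. The KO-Control libraries are shared with the KO guanabenz contrast. With the KO-Guanabenz libraries read as further controls, as their treatment entry has it, Per2 was at 0.18 and Dbp at 0.28 in this comparison.

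Loss of the receptor without drug was read from KO-Control against WT-Control, which shares its libraries with the 4 drug contrasts. Dbp was at 18.2 ± 6.46 CPM against 6.51 ± 1.25 (SD, n = 3), which is 1.49 in log2 (SE 0.27, edgeR adjusted p = 0.18), the widest of any member in a comparison of 2 groups. Per2 differed by 0.86 (SE 0.17, adjusted p = 0.18), Tef by 0.72 (SE 0.12, adjusted p = 0.12), Per3 by 0.71 (SE 0.17, adjusted p = 0.66) and Nr1d1 by 0.69 (SE 0.19, adjusted p = 0.96) in the same test. Nr1d2 was higher by 0.58 (SE 0.14), Ciart by 0.54 (SE 0.19), Hlf by 0.38 (SE 0.21) and Per1 by 0.21 (SE 0.21), while Arntl was at -0.68 (SE 0.16, adjusted p = 0.66 in edgeR).

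Between the untreated genotypes edgeR called 0 of 10 members beside 0.0062% of genes, and DESeq2 called 6 (Per2, Per3, Dbp, Tef, Nr1d2 and Arntl) beside 0.106%. An unadjusted p under 0.05 was found for 8 members beside 3.68% of genes. Ranges were apart and higher for 6 members (Per2, Per3, Dbp, Tef, Nr1d2 and Ciart) beside 4.56%, and apart and lower for Arntl beside 3.77%. The members' median was 0.63 against 0.0 over all genes. These counts, too, reuse the WT-Control libraries in view when the family was proposed, and are no independent support. None of the 10 marker lists of other cell types had summed levels apart between these groups. Without WT-Control 1, Per2 passed in edgeR (1.08, adjusted p = 0.03), and without WT-Control 2, Nr1d2 passed (0.82, adjusted p = 0.022). Over all omissions of 1 library Per2 ran from 0.7 to 1.08 and Nr1d2 from 0.45 to 0.82, with 0 to 2 genes called.

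Whether a drug's effect depended on the receptor was read from the difference of its effects between genotypes. For guanabenz the difference, WT minus KO, was 1.93 (SE 0.23) for Per2, which is the WT change of 1.15 less the KO change of -0.78. Dbp differed by 2.13 (SE 0.39), Per3 by 1.28 (SE 0.23), Tef by 1.09 (SE 0.17), Ciart by 0.98 (SE 0.28), Nr1d2 by 0.75 (SE 0.2) and Arntl by -1.01 (SE 0.22). Hlf and Per1 were at 0.67 (SE 0.29 and 0.3) and Nr1d1 at 0.42 (SE 0.26). Among the 10 members edgeR called 1, Per2, beside 0.0062% of genes, and it was the only gene called in this difference. DESeq2 called 5 members (Per2, Per3, Dbp, Tef and Arntl) beside 0.0807%, and 9 had an unadjusted p under 0.05 beside 5.71%. These counts contain the WT contrast from which Per2 was put forward and are given as a description. The members' median was 0.86 against 0.01 over all genes. Read with the conflicting treatment entry, the KO side of the difference would compare untreated with untreated libraries.

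For clonidine the difference between genotypes was 0.93 (SE 0.23, adjusted p = 0.38 in edgeR) for Per2, 0.81 (SE 0.23, adjusted p = 0.4) for Per3, 0.83 (SE 0.38, adjusted p = 0.55) for Dbp and -0.63 (SE 0.22, adjusted p = 0.45) for Arntl. Nr1d1 and Ciart were at -0.03 (95% interval -0.58 to 0.53) and -0.08 (-0.66 to 0.5), intervals that leave room for differences in either direction. In this difference edgeR called 0 of 10 members beside 0.0% of genes, DESeq2 called Per2 alone beside 0.227%, and 5 members had an unadjusted p under 0.05 beside 8.94%. The median was 0.45 against 0.0 over all genes. This difference also contains the WT-Control libraries in view when the family was proposed. Under clonidine the group means were 8.42 CPM in WT and 8.06 in KO hosts for Per2, and 12.7 and 11.8 for Per3. Dbp was at 10.6 and 16.7 CPM and Arntl at 14.3 and 13.8. Without drug, KO-Control against WT-Control already differed by 0.86, 0.71, 1.49 and -0.68 in log2 for Per2, Per3, Dbp and Arntl. The genotype differences for both drugs include this gap between the controls.

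Clonidine and guanabenz share a dichlorophenyl group and differ in the basic part, an imidazoline in clonidine and an open guanidine chain in guanabenz. They were compared in WT hosts at 1 time, with doses not given, so a difference can reflect dose. Per2 was lower under clonidine by 0.38 (log2 -0.38, 95% interval -0.72 to -0.03, adjusted p = 0.96 in edgeR), and the ranges were apart, with 6.97 to 9.57 CPM under clonidine and 10.2 to 11.7 under guanabenz. Ciart was at -0.57 (interval -0.99 to -0.16, adjusted p = 0.96 in edgeR), also with ranges apart. Arntl was at 0.1 (interval -0.24 to 0.43), Nr1d1 at -0.07 (-0.46 to 0.33) and Hlf at -0.1 (-0.53 to 0.34), intervals that leave room for moderate differences in either direction. Neither edgeR (beside 0.0% of genes) nor DESeq2 (0.0248%) called any of the 10. An unadjusted p under 0.05 was found for 3 members beside 5.05% of genes, and ranges were apart and lower for 2 beside 3.73% and apart and higher for 0 beside 5.33%. The WT-Guanabenz libraries here were in view when the family was proposed. Summed T cell markers were apart and higher under clonidine, at 43.7 to 57.5 against 21.2 to 41.7 CPM, as were the endothelial list (216 to 235 against 155 to 204 CPM) and the skeletal muscle list (183 to 274 against 139 to 181 CPM). Their part was not tested.

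Seen library by library, the clock genes varied together with Arntl against them. The log2 level of Dbp less that of Arntl was -1.28, -1.11 and -2 in WT-Control and -1.12, -0.59 and -0.83 in KO-Guanabenz. It was 1.39, 0.38 and 0.21 in KO-Control and 0.3, -0.05 and 0.49 in KO-Clonidine. WT-Clonidine held -0.3, -0.94 and -0.1, and WT-Guanabenz held -0.9, 0.95 and 0.23. KO-Control and WT-Control were thus at opposite ends, and WT-Guanabenz spread over more of the scale than any other group.

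**Figure D3:**
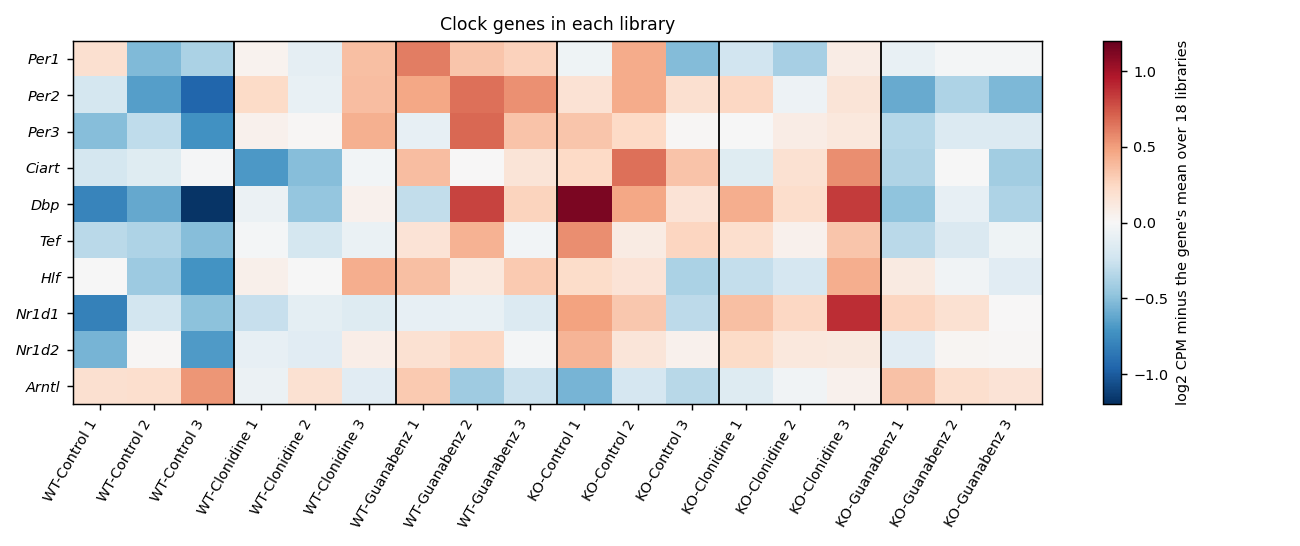
Log2 CPM of each clock gene less its mean over 18 libraries, libraries in columns by group, red above and blue below the mean. The WT-Control columns are blue for Per2, Per3, Dbp and Tef and red for Arntl, and the KO-Control columns are red or near white for those 4 genes and blue for Arntl.

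**Figure D4:**
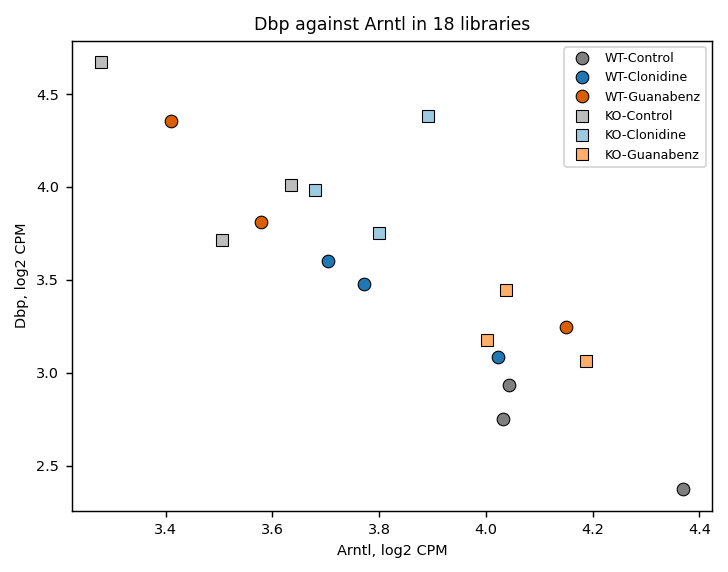
Dbp against Arntl in log2 CPM, each point a library, circles WT and squares KO, coloured by group. Libraries high in Dbp are low in Arntl (r = -0.85), with WT-Control 3 at the lower right end and KO-Control 1 at the upper left end.

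Across the 18 libraries all 36 pairs among the 9 members other than Arntl had a positive Pearson r of log2 CPM, from 0.04 to 0.92 with a median of 0.51, and all 9 pairs with Arntl had a negative r, from -0.85 to -0.14. These values describe libraries that share group means and a common scaling, and no test was applied. Dbp and Tef were closest (r = 0.92, Spearman rho = 0.89, and r = 0.86 without the 2 libraries farthest from the median of Dbp). Dbp and Arntl were most opposed (r = -0.85, rho = -0.83, and -0.75 without the 2 libraries farthest from the median of Dbp). The sign did not hold for every pair in such an omission. Without the 2 libraries farthest from the first gene's median, Per2 with Nr1d1 went from 0.2 to -0.02. Hlf with Arntl went from -0.32 to 0.02, and the remaining pairs kept their sign. Per1 was less close to that block: its r was 0.81 with Hlf and 0.62 with Per2, but 0.25 with Dbp, 0.04 with Nr1d1 and -0.14 with Arntl.

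Part of the pattern was present inside groups. For deviations from the group means r was 0.84 between Per3 and Dbp, 0.7 between Dbp and Tef, 0.78 between Per1 and Hlf, -0.81 between Per3 and Arntl and -0.76 between Dbp and Arntl. In these deviations 31 of 36 pairs without Arntl were positive and 6 of 9 pairs with Arntl were negative. Ciart departed from the block inside groups, with -0.02 against Dbp, -0.21 against Tef and 0.41 against Arntl. The grid of pairwise correlations sets both kinds side by side.

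**Figure D5:**
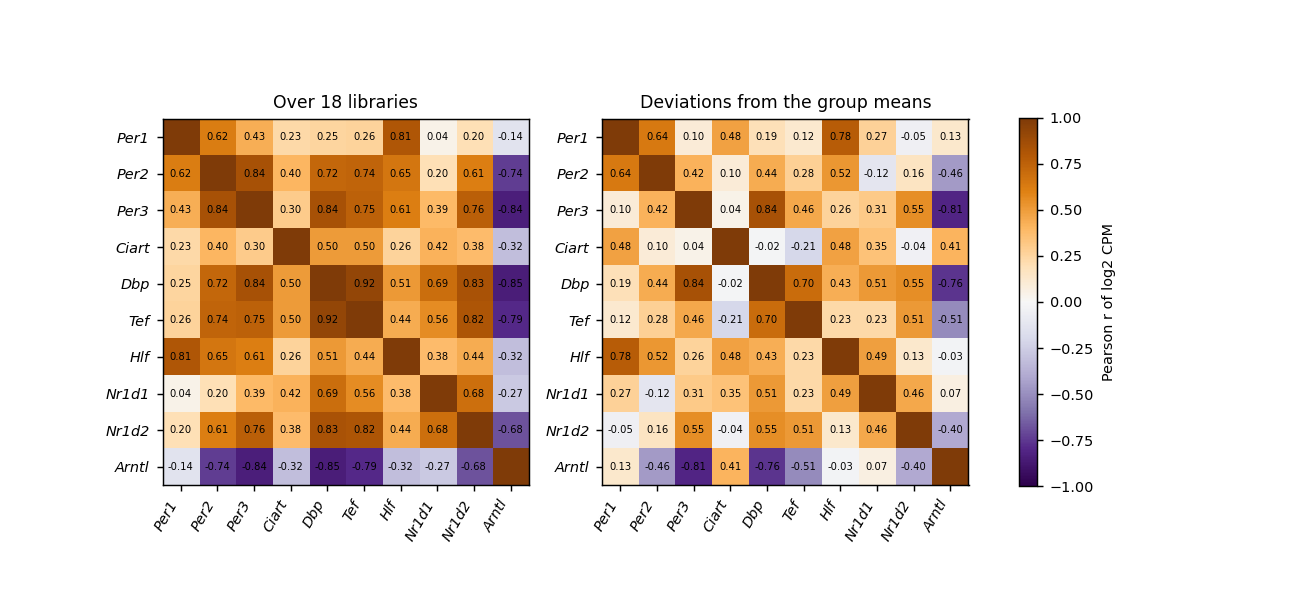
Pearson r of log2 CPM between clock genes, left over 18 libraries and right for deviations from the 6 group means; brown is positive and purple negative. The Arntl row is purple at left, and at right it stays at -0.4 or lower for Per2, Per3, Dbp, Tef and Nr1d2.

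By likeness over the 18 libraries, the 5 genes of 11872 compared (mean log2 CPM of at least 1) that were closest to Dbp were all clock genes: Tef (r = 0.92), Per3 (0.84), Nr1d2 (0.83), Per2 (0.72) and Nr1d1 (0.69). The 4 genes most opposed to Arntl were Dbp (-0.85), Per3 (-0.84), Tef (-0.79) and Per2 (-0.74), followed by Neil3 (-0.72), which codes for a DNA glycosylase. Closest to Per2 were Per3 (0.84), Pyurf (0.77), Ccdc77 (0.75), Tef (0.74) and Zbtb12 (0.73), and closest to Arntl were Asb1 (0.68), Lrrc8c (0.66), Tuft1 (0.66), Dhx33 (0.64) and Tmod2 (0.64).

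Of 20 further core clock genes, all tested, edgeR called 0 in each of the 8 comparisons, with at most 2 at an unadjusted p under 0.05 in a comparison and medians from -0.04 to 0.08. The share of all genes at that unadjusted p ran from 3.68% to 15.1% by comparison. Cry1 and Cry2, code for the cryptochrome partners of PER. Cry1 was at -0.4 (SE 0.12, adjusted p = 0.16 in edgeR) in KO-Guanabenz against KO-Control and at 0.15 (SE 0.12) in WT-Guanabenz against WT-Control. Cry2 was at 14.5 ± 0.845 CPM in WT-Guanabenz against 12.5 ± 0.542 in WT-Control (SD, n = 3), and at -0.31 (SE 0.09, adjusted p = 0.96 in edgeR) under clonidine against guanabenz. Nfil3, which competes with the D-box factors, was at -0.5 in WT-Clonidine against WT-Control (adjusted p = 0.32 in edgeR).

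Of 20 listed output genes 16 were tested, and edgeR called 0 in each comparison. Wee1, a mitotic inhibitor kinase with E-boxes known in its promoter, was at 34.6 ± 5.58 CPM in WT-Guanabenz against 25.2 ± 0.862 in WT-Control (SD, n = 3), which is 0.45 in log2 (SE 0.12, edgeR adjusted p = 0.22). Its levels in KO hosts, 28.9 ± 3.61, 28.3 ± 2.41 and 27.3 ± 4.06 CPM in KO-Control, KO-Clonidine and KO-Guanabenz, differed by less than their spread.

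Inputs that act on Per1 and Per2 were looked at in the same way. None of 12 glucocorticoid-induced genes and none of 11 tested cAMP and immediate early genes was called by edgeR in any of the 8 comparisons, with at most 4 of a list at an unadjusted p under 0.05 in a comparison. Over all genes that share ran from 3.68% to 15.1% by comparison, and was 12.9% in WT-Clonidine against WT-Control. Tsc22d3, which codes for the glucocorticoid-induced leucine zipper, was at 67.6 ± 3.67 CPM in WT-Clonidine and 66.4 ± 5.63 in WT-Guanabenz against 53.6 ± 3.96 in WT-Control (SD, n = 3), differences of 0.34 and 0.31 (SE 0.11 each, adjusted p = 0.2 and 0.29 in edgeR). In WT-Clonidine it went against most of its list: 8 of 12 genes were below 0 with a median of -0.15, 1 was higher and 3 were lower at an unadjusted p under 0.05, and the metallothionein genes Mt1 and Mt2 were at -0.75 and -1 (edgeR adjusted p = 0.29 and 0.34). In WT-Guanabenz 8 of 12 were above 0 with a median of 0.14. At an unadjusted p under 0.05, 2 were higher (Tsc22d3 and Zbtb16) and 0 lower, beside 11.4% of all genes. Zbtb16 was at 1.65 (SE 0.58, adjusted p = 0.29 in edgeR), with WT-Guanabenz libraries spread from 0.864 to 5.51 CPM. The list had 10 of 12 above 0 in KO-Control against WT-Control (median 0.29). Below 0 were 9 of 12 in KO-Clonidine (median -0.08) and 8 of 12 in KO-Guanabenz (median -0.27), each against KO-Control. For the difference between genotypes 8 of 12 were above 0 with clonidine (median 0.02) and 10 of 12 with guanabenz (median 0.23). At an unadjusted p under 0.05, 1 was higher with clonidine beside 8.94% of all genes, and 3 with guanabenz beside 5.71%. Clonidine against guanabenz in WT hosts had 10 of 12 below 0 (median -0.31). The list's part in the clock gene values was not tested. In KO hosts Tsc22d3 was at -0.12 under clonidine and -0.2 under guanabenz (SE 0.11 each). Among the cAMP and immediate early genes, WT-Clonidine against WT-Control had 2 higher and 2 lower at an unadjusted p under 0.05, with a median of 0.01. Egr1 was at -0.5, Junb at -0.48 and Nr4a2 at 0.32 there (edgeR adjusted p = 0.16, 0.27 and 0.24). In KO-Guanabenz against KO-Control 11 of 11 were above 0 with a median of 0.2. There 1 had an unadjusted p under 0.05, beside 15.1% of all genes: Fosb at 0.88 (SE 0.26, edgeR adjusted p = 0.15). Above 0 were also 10 of 11 in KO-Clonidine (median 0.05) and 8 of 11 in WT-Guanabenz (median 0.04), each against its control. Below 0 were 7 of 11 in KO-Control against WT-Control and 8 of 11 in clonidine against guanabenz. For the difference between genotypes 6 of 11 were below 0 with clonidine (median -0.11) and 9 of 11 with guanabenz (median -0.16). The list's part was not tested.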

How the data were processed

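The authors deposited 1 table of estimated counts, by gene and library, already whole numbers. Per the submitters' processing notes the authors used Trim Galore 0.6.5, kallisto 0.46.0 and the build GRCm38; how transcripts were summed to genes and strandedness are not given in the sources used here. Of 21015 Entrez identifiers 20994 matched a symbol in RefSeq GRCm38.p6, and the others held at most 0.022% of a library. Genes passing filterByExpr (16125) were scaled by TMM and fitted with 6 group means over all 18 libraries in edgeR 4.0.16 (R 4.3.3); its quasi-likelihood test (two-sided) was used, with Benjamini-Hochberg adjustment over all genes in each of 8 comparisons, with adjusted p under 0.05 as a call. The SE is the log2 change over the root of F, and 95% intervals use 16.35 degrees of freedom. CPM uses TMM-scaled totals, and correlations use log2 CPM with a prior count of 2. The fit was tested on simulated data.

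The members, gene lists, tests and alternatives were chosen with earlier results of these data known. Named genes are all members, up to 3 of each list by smallest p in a comparison, and the 5 most alike in pattern. Alternatives were DESeq2 1.42.0, RLE scaling, no low-count filter, the replicate number as a block, KO-Guanabenz read as KO-Control, and omission of each library; omission of all KO-Guanabenz libraries was added after seeing the data. Counting error is small at these totals, so the spread between libraries set the precision. At the lowest, a member had 292 counts in a library. No 2 libraries were identical (0 pairs).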

Additional observations from a re-analysis of the deposited data

Results flagged for a closer look

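The guanabenz effect on Per2 differed between genotypes by 1.93 on the log2 scale, WT minus KO, and is listed because that difference was past the threshold in the fit over all genes. Per2 was higher in 3 of 3 WT-Guanabenz libraries than in every WT-Control library, and lower in 3 of 3 KO-Guanabenz libraries than in every KO-Control library. The gene was put forward with its WT guanabenz contrast known, so the value is a description and no test of the gene, and the KO-Guanabenz libraries carry the treatment entry untreated.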

How the results depend on the processing

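DESeq2 called more genes than edgeR: 353, 173, 29, 443, 17, 4, 33 and 13 in WT-Clonidine, WT-Guanabenz, KO-Clonidine, KO-Guanabenz, the untreated genotypes, clonidine against guanabenz, and the clonidine and guanabenz differences between genotypes, with 2, 5, 0, 5, 6, 0, 1 and 5 members among them. RLE scaling and no low-count filter each called 1 gene, a member, in WT-Guanabenz against WT-Control, and no filter called 3 genes in the clonidine difference. Same-numbered libraries did not deviate together (median r = 0.01, from -0.331 to 0.253); with the replicate block 0 genes were called in KO-Clonidine, KO-Guanabenz and the untreated genotypes, and the block called 1 in the guanabenz difference. With KO-Guanabenz read as KO-Control, 0 genes were called in KO-Clonidine against KO-Control and 2 in the untreated genotypes, and changes in KO-Clonidine turned sign for Per2 (0.18), Per3 (0.07), Dbp (0.28), Tef (0.11), Nr1d2 (0.06), Arntl (-0.02) and Ciart (0.1). The cause of these shifts was not tested. Leaving out all KO-Guanabenz libraries, chosen after seeing the data, changed no direction or call of a member in the comparisons without them, while genes called in KO-Clonidine against KO-Control went from 3 to 4.

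Leaving out 1 library at a time gave 0 to 55 genes and 0 to 1 members called in WT-Clonidine, 0 to 1 of each in WT-Guanabenz, 0 to 4 genes in KO-Clonidine, 0 to 85 in KO-Guanabenz, 0 to 2 genes and 0 to 1 members between untreated genotypes, 0 to 1 genes in clonidine against guanabenz, 0 to 2 in the clonidine difference, and 1 to 4 genes and 1 to 4 members in the guanabenz difference. The 55 came without WT-Control 2, the 85 without KO-Guanabenz 3 and the 4 members (Per2, Per3, Dbp and Arntl) without WT-Guanabenz 1. Of 80 member changes, 67 stayed on 1 side of 0 in all 18 omissions. The other 13 were, in KO-Clonidine, Per1 (-0.38 to 0.11), Dbp (-0.32 to 0.2), Tef (-0.21 to 0.02), Hlf (-0.27 to 0.13) and Nr1d2 (-0.13 to 0.06); in KO-Guanabenz, Per1 (-0.26 to 0.23), Hlf (-0.21 to 0.06) and Nr1d1 (-0.25 to 0.12); between untreated genotypes Per1 (-0.07 to 0.45); in clonidine against guanabenz Per3 (-0.35 to 0.03) and Arntl (-0.05 to 0.34); and in the clonidine difference Nr1d1 (-0.19 to 0.2) and Ciart (-0.29 to 0.12).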
